A study of Mus musculus with 2 samples.

Results

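Foxc1, Foxc2, Twist1, Twist2, Prrx1, Tbx15, Tbx18 and Foxd1 are 8 transcription factors grouped here as factors of the periocular mesenchyme. They were chosen by symbol, 8 of the 31053 genes in the deposited feature list, and each symbol matched 1 gene. Transcripts were counted in single cells from mouse eye cups at postnatal day 0, in 1 library per genotype that pooled 3 eye cups. The control pups were Myrf fl/fl and the mutant pups Rx>cre Myrf fl/fl. In both genotypes the 2 copies of Myrf, which encodes a membrane-bound transcription factor, were flanked by loxP sites. The mutant alone carried Rx>cre, a transgene that makes the cre recombinase in the eye field, the source of the neural retina and the retinal pigment epithelium (RPE) and not of the mesenchyme. Cornea, lens and optic nerve were taken off before the tissue was dissociated with papain, and the cells were not sorted.

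The periocular mesenchyme surrounds the developing eye cup and comes mostly from the cranial neural crest. It forms the stroma of the cornea, sclera and choroid, the trabecular meshwork, the tendons of the eye muscles, and the pericytes of ocular vessels. Foxc1 and Foxc2 are forkhead factors needed for the front segment of the eye, Twist1 and Twist2 are basic helix-loop-helix factors of mesenchyme, Prrx1 is a homeobox factor of limb and head mesenchyme, and Tbx15 and Tbx18 are T-box factors of skeletal and mural cell lineages. Foxd1 is a forkhead factor of stromal cells in several organs and is also known in the temporal retina. The comparison asked in which cells of the eye cup these genes were found, and how far their levels differed between the libraries.

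Promoter sequences were available from RefSeq (GRCm38.p6) for 6 of the 8 genes, and 4 are shown. Twist1, Twist2 and Prrx1 shared the cluster with their highest level, while Foxd1 was found mostly in the neural retina. Each sequence is the 150 bases that end just before the annotated start, on the gene's own strand. Twist1 is chr12:33957521-33957670 (+), Twist2 chr1:91801311-91801460 (+), Prrx1 chr1:163313711-163313860 (-) and Foxd1 chr13:98354092-98354241 (+). Capitals mark a CAAT box, written CCAAT, and 2 forms of the TATA box, which are TATAAA in one form and TATAAG in the other. Both strands were searched.
Twist1: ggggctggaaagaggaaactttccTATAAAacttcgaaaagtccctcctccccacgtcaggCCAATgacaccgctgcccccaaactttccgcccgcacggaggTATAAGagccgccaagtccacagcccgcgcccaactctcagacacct
Twist2: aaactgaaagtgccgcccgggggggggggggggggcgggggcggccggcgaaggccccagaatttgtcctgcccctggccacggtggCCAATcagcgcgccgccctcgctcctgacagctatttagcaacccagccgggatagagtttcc
Prrx1: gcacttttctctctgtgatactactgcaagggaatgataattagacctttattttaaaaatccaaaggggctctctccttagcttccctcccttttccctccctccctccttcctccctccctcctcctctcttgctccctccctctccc
Foxd1: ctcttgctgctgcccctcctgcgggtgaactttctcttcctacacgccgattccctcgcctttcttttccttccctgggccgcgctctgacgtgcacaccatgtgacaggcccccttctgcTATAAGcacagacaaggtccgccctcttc
CCAAT began 89 bases before the start of Twist1 and 63 bases before that of Twist2, and 24.5% of 32851 promoters of the same length held it. TATAAG began 47 bases before the start of Twist1 and 29 bases before that of Foxd1, against 4.06% of promoters. TATAAA began 126 bases before the start of Twist1, against 7.57%. None of these letters occurred in the Prrx1 window. GC content was 58% for Twist1, 69.3% for Twist2, 50% for Prrx1 and 59.3% for Foxd1, against a median of 54% over all promoters.

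On GRCm38, with positions from GENCODE, Foxc1 (ENSMUSG00000050295) lies at chr13:31806633-31812476, Foxc2 (ENSMUSG00000046714) at chr8:121116171-121118895, Twist1 (ENSMUSG00000035799) at chr12:33957671-33959829 and Twist2 (ENSMUSG00000007805) at chr1:91801461-91848028, each on the plus strand. Prrx1 (ENSMUSG00000026586) lies at chr1:163245119-163313710 and Tbx18 (ENSMUSG00000032419) at chr9:87702800-87731260, both on the minus strand. Tbx15 (ENSMUSG00000027868) lies at chr3:99240381-99354259 and Foxd1 (ENSMUSG00000078302) at chr13:98354242-98359305, on the plus strand. Foxc2 overlaps Gm20388 and Prrx1 overlaps Gm26523 on the same strand, so reads of these genes could have been split between the overlapping annotations. Over all barcodes kept, totals ran from 333 UMIs (Tbx15) to 3757 UMIs (Twist1) in the control and from 187 (Tbx15) to 2527 (Twist1) in the mutant.

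The control matrix held 14305 barcodes with 79017429 unique molecular identifiers (UMIs, each marking 1 captured transcript), and the mutant matrix held 12222 barcodes with 76272867 UMIs. After filtering, 12485 control and 10813 mutant cells remained, with median UMI counts of 4272 and 4821. The libraries shared 59 barcode sequences. Of 37 clusters, 8 were mesenchymal, with 2092 control cells (16.8% of the library) and 969 mutant cells (8.96%). Within the mesenchyme, cells with an Xist UMI and no Y-linked UMI were 22.1% of control and 56.6% of mutant cells, so the pools differed in sex makeup. Myrf, the targeted gene, stood at 226 CPM (UMIs on the counts-per-million scale) in RPE-like cells of the control and 26.5 CPM in those of the mutant (743 and 64 UMIs), although 3′ counting need not cover the deleted exon. Levels below are CPM, in which the UMIs of a gene are divided by all UMIs of the class. Each 95% interval covers counting error only. With 1 library per genotype a difference has no replicate check, and no test was made.

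Class names were rebuilt from marker genes. Fibroblast-like cells (506 control, 232 mutant) were led by Clec3b, Pi16, Tnxb, Nov and Dpt, with 11 of 12 fibroblast markers counted. Pericyte-like cells (85 and 67) were led by Higd1b, Rgs5, Kcnj8, Foxs1 and Abcc9, with 12 of 12 pericyte markers. The other mesenchyme-like class (449 and 354) joined an Acan and Tnc cluster (208 and 156), a corneal stroma-like cluster with Aldh3a1 and Kera (154 and 155) and a Tnmd and Scx cluster (87 and 43). The corneal stroma-like name rests on 3 of 5 markers, and it was found although cornea had been removed. A Col10a1 and Aldh1a2 cluster (336 and 183) and a Lypd1 and Cldn10 cluster (161 and 115) were mesenchymal and stayed unnamed. A Dkk2 and Col1a1 cluster held 555 control cells and 18 mutant cells at a median of 1826 and 944 UMIs, and was left out of the comparisons by class. Values given over all mesenchyme include it. Without it the mesenchyme held 1537 control cells (12.3%) and 951 mutant cells (8.79%), and the cells with Xist alone were 25.5% and 57% of them. Neural retina-like cells (5921 and 6967) comprised amacrine-like, photoreceptor-like and neurogenic-like cells besides the retinal progenitor-like ones.

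Of the 8 genes, 7 were counted mainly in mesenchyme, and Foxd1 was counted mainly in neural retina. Of all Foxc1 UMIs, 80.7% of the control and 80.4% of the mutant ones lay in the mesenchyme clusters. For Twist1 the shares were 91.5% and 96.8%. For Foxc2, Twist2, Prrx1, Tbx15 and Tbx18 the shares lay between 87.4% and 93.9% in the control and between 87.2% and 97% in the mutant. Without the Dkk2 and Col1a1 cluster the Foxc1 share was 78.9% and 80.4%. For Foxd1 the mesenchyme share was 13.7% and 4.73%, and neural retina-like cells held 62.3% and 77.6% of its UMIs. The label of a mesenchyme factor therefore described 7 of the 8 genes in these eye cups, and Foxd1 was counted chiefly elsewhere.

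**Figure D1:**
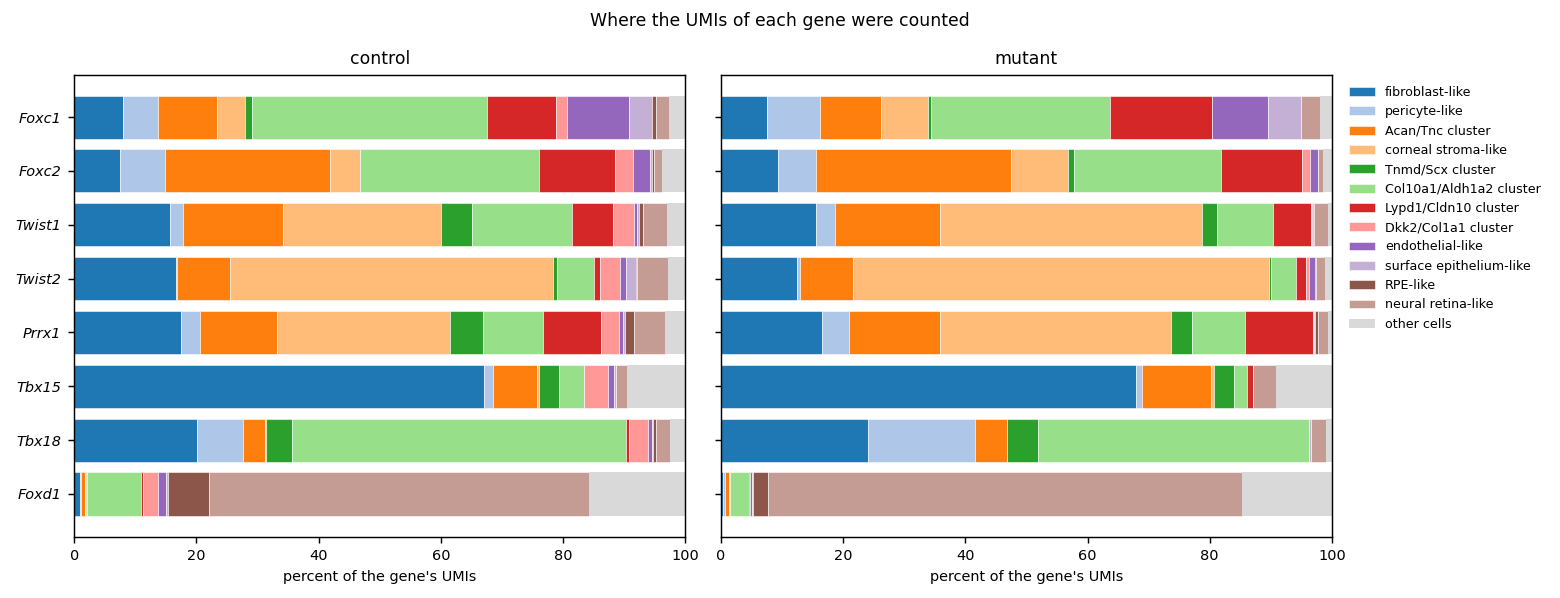
Share of each gene's UMIs (percent, horizontal axis) by group of cells, for the control and the mutant library. Mesenchyme holds over 80% of the UMIs of 7 genes in both libraries, and 13.7% and 4.73% of those of Foxd1.

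The 7 mesenchymal genes were not spread evenly, and each had its own order of clusters. Foxc1 led in the Col10a1 and Aldh1a2 cluster, Twist1, Twist2 and Prrx1 in corneal stroma-like cells, and Tbx15 in fibroblast-like cells. Over 7 mesenchyme clusters, 6 of the 8 genes had the same leading cluster in both libraries. The exceptions were Foxc2 and Tbx18.

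Foxc1, mutated in anterior segment dysgenesis, stood at 240 CPM in control and 225 CPM in mutant cells of the Col10a1 and Aldh1a2 cluster. It stood at 174 and 203 CPM in pericyte-like cells and at 165 and 215 CPM in the Lypd1 and Cldn10 cluster. In the control the leading cluster lay above the next with intervals apart, while in the mutant the leading 3 clusters overlapped. Foxc1 was lower in the Acan and Tnc cluster (76.6 and 73.9 CPM), in corneal stroma-like cells (47.2 and 50.8 CPM) and in fibroblast-like cells (38.8 and 42.3 CPM). Outside mesenchyme, Foxc1 reached 70.9 and 75.1 CPM in endothelial-like cells and 72.1 and 98.1 CPM in surface epithelium-like cells. It stood at 2.15 and 1.18 CPM in photoreceptor-like cells, which were taken as the class that should lack these genes.

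Foxc2, a relative of Foxc1 known for vessels and lymphatics, was spread over 4 clusters at similar levels. It stood at 31.9 and 34.6 CPM in the Acan and Tnc cluster, 27.2 and 27.1 CPM in the Col10a1 and Aldh1a2 cluster, 26.7 and 25.4 CPM in the Lypd1 and Cldn10 cluster and 33.8 and 21.4 CPM in pericyte-like cells. The pericyte-like values rest on 26 and 14 UMIs. Foxc2 was lower in corneal stroma-like cells (7.5 and 9.19 CPM) and in fibroblast-like cells (5.4 and 7.8 CPM). In the Tnmd and Scx cluster it had 0 UMIs in the control, which allows up to 3.03 CPM, and 2 UMIs in the mutant. The overlap of Foxc2 with Gm20388 makes these counts uncertain.

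Twist1, the gene of Saethre-Chotzen syndrome, was found in all mesenchyme clusters and was highest in corneal stroma-like cells, at 429 and 473 CPM. The Acan and Tnc cluster stood next in both libraries, at 209 and 208 CPM, with intervals apart from the corneal stroma-like level. Twist1 in fibroblast-like cells was 122 and 145 CPM and in pericyte-like cells 100 and 124 CPM. Twist2, which acts in dermis, was more restricted. Corneal stroma-like cells held 52.8% of its control and 68% of its mutant UMIs, at 270 and 238 CPM. Fibroblast-like cells came next at 40.1 and 36.8 CPM, while pericyte-like cells held 3 and 4 UMIs of Twist2.

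Prrx1 shared its leading cluster with Twist1. It was highest in corneal stroma-like cells, at 414 and 406 CPM. In the Lypd1 and Cldn10 cluster it stood at 198 and 231 CPM, in the Tnmd and Scx cluster at 185 and 225 CPM, in pericyte-like cells at 137 and 170 CPM and in fibroblast-like cells at 120 and 150 CPM. The lowest level of Prrx1 among these clusters was in the Col10a1 and Aldh1a2 cluster, at 85.8 and 107 CPM, where Foxc1 had its highest level.

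The T-box pair differed in where it was found. Tbx15, mutated in Cousin syndrome, had 67% of its UMIs in fibroblast-like cells in the control and 67.9% in the mutant, at 46.3 and 47.2 CPM. It was at 1 UMI in corneal stroma-like cells of each library, and outside mesenchyme it reached 21.4 and 19.5 CPM in muscle-like cells (18 and 12 UMIs). Tbx18, known in pericytes and in the sinus node of the heart, stood at 69.8 and 64.7 CPM in the Col10a1 and Aldh1a2 cluster and at 46.8 and 77.9 CPM in pericyte-like cells. It was at 19.9 and 26 CPM in fibroblast-like cells. In corneal stroma-like cells Tbx18 had 1 and 0 UMIs, and in the Lypd1 and Cldn10 cluster 2 and 0.

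Foxd1 was highest in retinal progenitor-like cells, at 62.2 and 60 CPM, against 17.2 and 17.5 CPM in photoreceptor-like cells. Of the 7 mesenchyme clusters compared it was highest in the Col10a1 and Aldh1a2 cluster, at 49.3 and 30.6 CPM. The 10 photoreceptor markers summed to 118 and 99.8 CPM in that cluster and to between 24.2 and 129 CPM in the other mesenchyme clusters compared. In those other clusters Foxd1 was at 6.24 CPM or less. In the shallow Dkk2 and Col1a1 cluster it stood at 40.1 CPM in the control (50 UMIs), where the photoreceptor markers summed to 1250 CPM, and their part in that level was not tested. RPE-like cells held Foxd1 at 42.5 and 19 CPM.

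**Figure D2:**
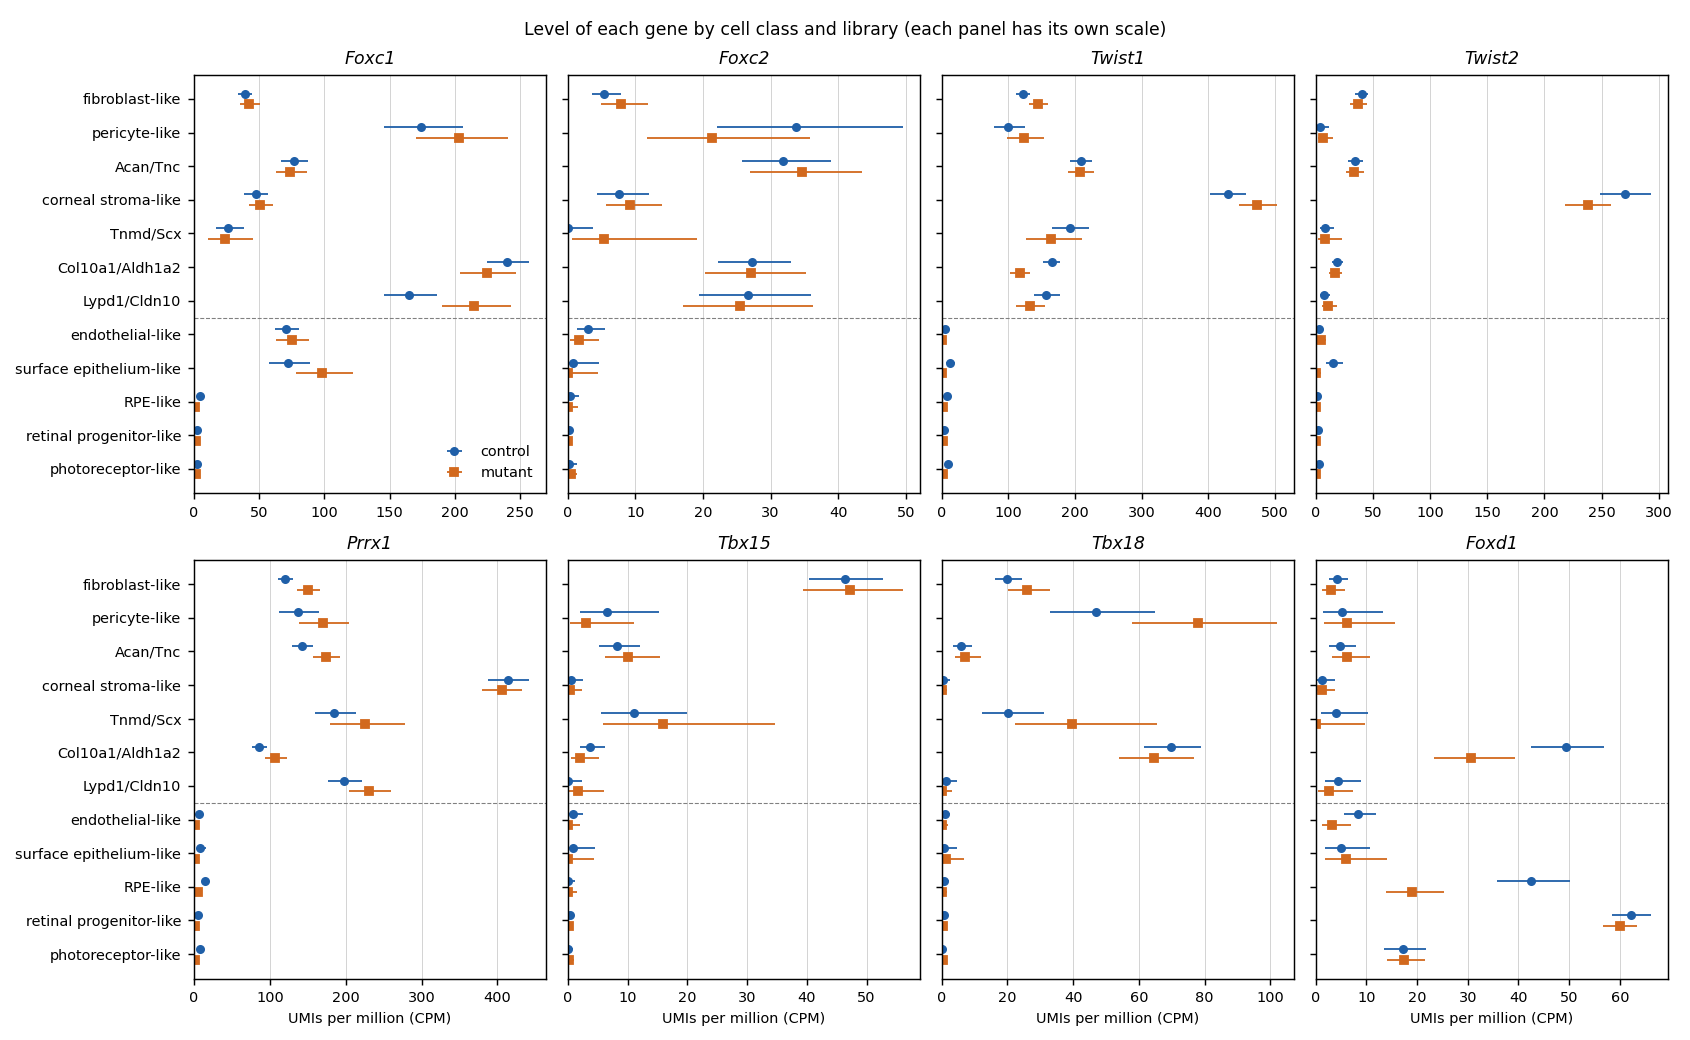
Level of each of the 8 genes (CPM, horizontal axis) by class, with the control and the mutant as separate points and exact Poisson 95% intervals as bars. Twist1, Twist2 and Prrx1 peak in corneal stroma-like cells, Tbx15 in fibroblast-like cells, and Foxd1 in retinal progenitor-like cells.

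Shares of cells with a UMI followed the levels. After each cell was thinned to 1000 UMIs, Twist1 was seen in 33.1% of control and 34.2% of mutant corneal stroma-like cells, against 0.931% and 0.228% of photoreceptor-like cells. Foxc1 was seen in 21.7% and 20.2% of the Col10a1 and Aldh1a2 cluster, against 0.169% and 0.228% of photoreceptor-like cells. For 7 of the 8 genes the share in mesenchyme lay above that in photoreceptor-like cells in both libraries, with intervals apart. Foxd1 was the exception, at 1.35% and 0.839% of mesenchyme cells against 1.78% and 1.6% of photoreceptor-like cells. Without the Dkk2 and Col1a1 cluster its mesenchyme shares were 0.659% and 0.847%. In retinal progenitor-like cells the Foxd1 share was 5.02% and 4.66% after thinning and 18% and 16.2% before it.

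Paralogs were looked for in the same cells, and the number of cells with both was set against the product of their shares. Twist1 and Twist2 were both seen in 23 of 2003 control and 11 of 953 mutant mesenchyme cells at 1000 UMIs, where the product gives 11.3 and 6.16 cells over clusters of unequal level. Within corneal stroma-like cells, where both genes were highest, the thinned counts were 9 and 6 cells, against products of 10.3 and 8.89. At full depth both were seen in 138 of 154 control and 134 of 155 mutant corneal stroma-like cells, against products of 137 and 134. Fibroblast-like cells held both in 7 and 2 thinned cells, against 2.83 and 0.463. At 2000 UMIs the counts there were 9 and 4, against 7.05 and 2.52, and at full depth 90 and 54, against 61.5 and 42.8. Foxc1 and Foxc2 were both seen in 5 and 3 thinned mesenchyme cells, against products of 1.81 and 1.84. Within the Col10a1 and Aldh1a2 cluster the thinned counts were 2 and 0, against 1.52 and 0.809, and at full depth 59 and 33, against 56.6 and 33.2. At full depth fibroblast-like cells held both Foxc transcripts in 17 and 9 cells, against 6.05 and 5.1, and the Acan and Tnc cluster in 32 and 30 cells, against 32.3 and 25. Tbx15 and Tbx18 were both seen in 0 and 0 thinned cells, against 0.587 and 0.378, too few to tell apart at this depth. At full depth 31 of 506 control and 21 of 232 mutant fibroblast-like cells held both T-box transcripts, against products of 21.6 and 16.3. Deep cells hold more of every transcript, so the full-depth counts also follow the spread in depth.

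In fibroblast-like cells all 8 genes differed between the libraries by less than 2-fold. Of all 12517 genes with at least 10 UMIs in this class, 5.08% were past 2-fold. Prrx1 was 120 CPM in control cells against 150 CPM in mutant cells, and the log2 ratio of mutant over control was 0.32 (95% interval 0.14 to 0.51). Twist1 was 122 and 145 CPM, a log2 ratio of 0.25 (0.06 to 0.44). These were 2 of 8 genes whose interval excluded 0, against 9.91% of all genes. The shares over all genes, here and below, are not matched for UMIs. With more UMIs an interval narrows, and a 2-fold difference from counting error alone becomes rarer. Tbx15, the gene most restricted to this class, differed by 0.03 (-0.30 to 0.35), and Tbx18 by 0.37 (-0.08 to 0.84). After thinning to 1000 UMIs, Twist2 was lower past 2-fold, with 30 UMIs in 487 control cells and 3 in 227 mutant cells. Foxc1 (15 and 15 UMIs) and Tbx18 (10 and 12 UMIs) were then higher past 2-fold, on few UMIs. The median log2 ratio at full depth was 0.18 over the 8 genes and -0.01 over all genes.

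In pericyte-like cells 5 of the 8 genes had at least 10 UMIs, and 0 of the 5 were past 2-fold, against 9.94% of 9459 genes. Tbx18 was the one whose interval excluded 0. Its 36 control UMIs came to 46.8 CPM and its 51 mutant UMIs to 77.9 CPM, which gives a log2 ratio of 0.72 (0.09 to 1.39). Over all genes 8.36% had such an interval. Foxc1 differed by 0.22 (-0.14 to 0.58), Prrx1 by 0.31 (-0.09 to 0.71), Twist1 by 0.30 (-0.16 to 0.77) and Foxc2 by -0.64 (-1.71 to 0.33). After thinning to 1000 UMIs the direction of Twist1 (10 and 3 UMIs, -1.35) and Prrx1 (-0.74) turned, while Tbx18 (5 and 9 UMIs) was higher past 2-fold. With 85 and 67 cells, a Foxc2 difference past 2-fold in the lower direction lay within counting error. The median was 0.30 over the 5 genes and 0.03 over all genes.

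In other mesenchyme-like cells 0 of 8 genes were past 2-fold, against 5.06% of 12989 genes. Intervals above 0 were found for Prrx1 (249 and 290 CPM, log2 ratio 0.22, 0.12 to 0.33), Twist1 (286 and 332 CPM, 0.21, 0.12 to 0.31) and Twist2 (116 and 130 CPM, 0.16, 0.00 to 0.31), 3 of 8 genes against 13.9% of all genes. The corneal stroma-like cluster, where these 3 genes were highest, made up 34.3% of the class in the control (29.9% to 38.9%) and 43.8% in the mutant (38.5% to 49.1%). Within that cluster alone the log2 ratio was 0.14 for Twist1 (0.02 to 0.27) and -0.19 for Twist2 (-0.36 to -0.02), and Prrx1 stood at 414 and 406 CPM. Twist2 was thus higher in the mutant over the joined class and lower within its main cluster. In the Acan and Tnc cluster Prrx1 differed by 0.29 (0.08 to 0.49), at 143 and 174 CPM.

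In the Col10a1 and Aldh1a2 cluster Twist1 was 165 CPM in control cells against 117 CPM in mutant cells, a log2 ratio of -0.49 (-0.72 to -0.28). Foxd1 was also lower, with 185 and 61 UMIs, a log2 ratio of -0.67 (-1.13 to -0.26). Prrx1 was higher by 0.31 (0.06 to 0.57), and Tbx18 and Foxc1 differed by -0.11 and -0.10. These were 3 of 8 genes with an interval apart from 0, against 13.5% of 12239 genes, and 0 of 8 were past 2-fold, against 6.64%. In the Lypd1 and Cldn10 cluster 6 genes were measured and 0 were past 2-fold, against 7.77% of 11284 genes. Foxc1 was the 1 gene there with an interval above 0, at 0.38 (0.13 to 0.64), against 8.72% of genes. The sex makeup of the mesenchyme differed between the libraries as well, and its part in the ratios of these 2 clusters was not tested.

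**Figure D3:**
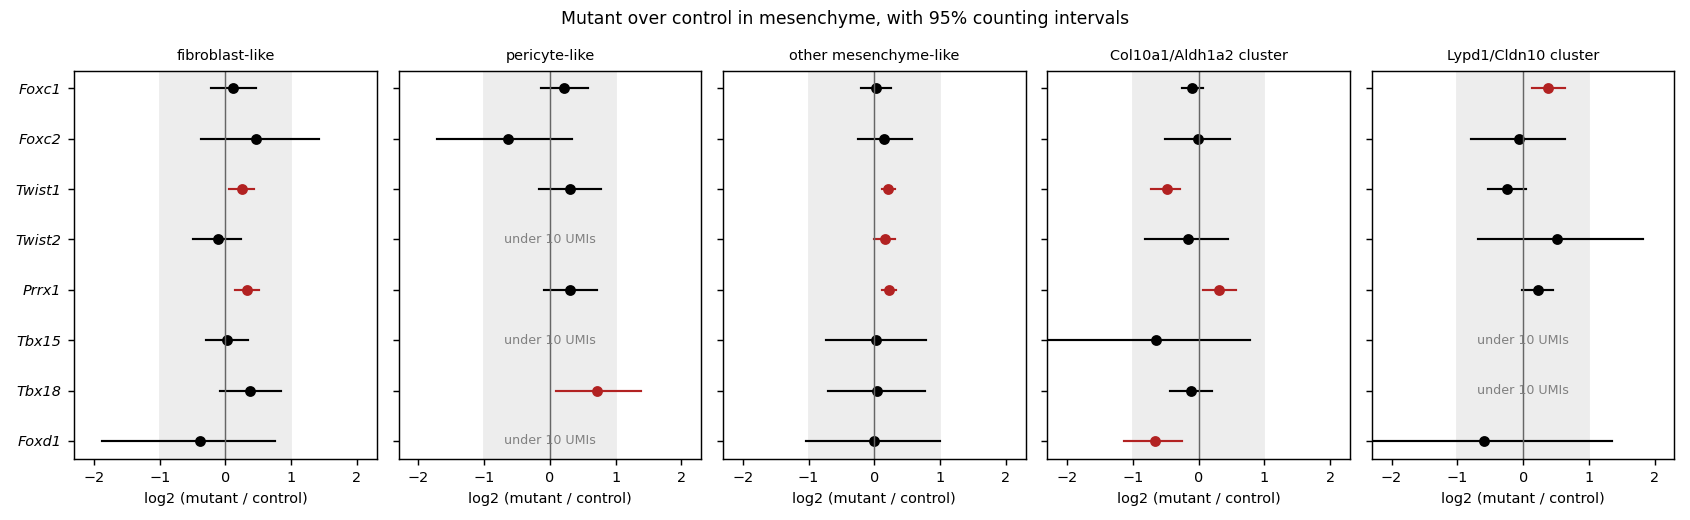
Log2 ratio of mutant over control for the 8 genes by class (1 CPM added on both sides), with 95% intervals of counting error as bars (cut off at the panel edge for Tbx15 and Foxd1 in the last 2 panels), shading for the range within 2-fold, and red where the interval excludes 0. Every plotted point lies within 2-fold, with Twist1 in the Col10a1 and Aldh1a2 cluster at -0.49 and Tbx18 in pericyte-like cells at 0.72.

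Neural retina-like cells held the mesenchymal genes at low levels, and 3 of them were lower in the mutant. Twist1 was at 5.25 CPM in control cells and 1.66 CPM in mutant cells (150 and 59 UMIs), 3.16-fold lower (95% interval 2.32 to 4.35). Twist2 was 2.03 and 0.337 CPM (58 and 12 UMIs), 6.01-fold lower (3.19 to 12.3). Prrx1 was 5.91 and 1.12 CPM (169 and 40 UMIs), 5.25-fold lower (3.7 to 7.61). These were 3 of 7 measured genes, against 2.86% of 15962 genes past 2-fold in this direction. With 5 CPM added on both sides, 0 of the 7 were past 2-fold. The control levels of these 3 genes were near or below the added 5 CPM, so that setting could hardly call them. Foxc1, at 1.78 and 1.32 CPM, differed 1.35-fold (0.89 to 2.05), and Foxd1, at 45.6 and 42.9 CPM, differed 1.06-fold (0.987 to 1.15).

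Collagen transcripts, which neural cells are not known to make in quantity, moved with these genes. Col1a1 stood at 572 and 93.5 CPM in neural retina-like cells and Col3a1 at 165 and 37.6 CPM. The 7 genes without Foxd1 came to 12 UMIs per 1000 UMIs of Col1a1, Col1a2 and Col3a1 in control neural retina-like cells and to 11.3 in control mesenchyme. In the mutant the values were 23.9 and 11.5. Over the neural classes of the control the ratio ran from 11.1 (progenitors) through 12.5 (photoreceptors) and 12.8 (neurogenic cells) to 14.3 (amacrine cells). In the mutant the ratio in these 4 classes was 21.8 to 34.4, on 16 to 97 UMIs of the 7 genes per class. The ratio in neural classes was thus near that of mesenchyme in the control and above it in the mutant. The part of RNA from other cells in the neural levels, and in their difference between the libraries, was not tested. Endothelial-like cells stood apart in both libraries, at 77.4 and 908, and 239 of the 305 control UMIs and 141 of the 157 mutant UMIs were Foxc1.

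**Figure D4:**
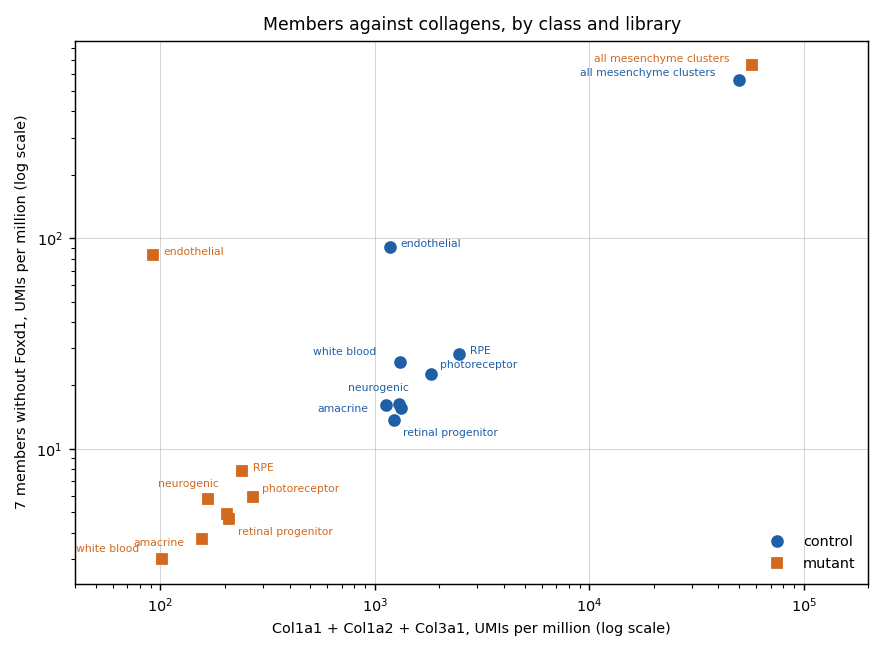
Summed level of the 7 genes without Foxd1 (vertical axis, CPM, log scale) against that of Col1a1, Col1a2 and Col3a1 (horizontal axis, CPM, log scale), by class and library. Neural, RPE and white blood classes lie lower on both axes in the mutant, while endothelial-like cells keep 90.5 and 83.6 CPM of the 7 genes.

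RPE-like cells (521 control, 209 mutant), where cre acts, held 4 of the genes with at least 10 UMIs, and each was lower in the mutant, against 7.75% of 12429 genes. Twist1 had 24 and 4 UMIs (7.29 and 1.65 CPM, 4.41-fold, 1.51 to 17.5), Prrx1 48 and 13 UMIs (14.6 and 5.37 CPM, 2.71-fold, 1.45 to 5.46) and Foxc1 15 and 1 UMIs (11-fold, 1.7 to 464). Col1a1 was 1290 and 50.4 CPM in the same cells, 25.6-fold lower (21.4 to 30.9), and the 7 genes came to 11.4 (control) and 32.8 (mutant, on 19 UMIs) per 1000 collagen UMIs. The part of RNA from other cells in these values was not tested. Foxd1 differed from this pattern in level. It had 140 and 46 UMIs (42.5 and 19 CPM, 2.24-fold lower, 1.59 to 3.19), above photoreceptor-like cells in the control and close to them in the mutant. The median depth of RPE-like cells was 2413 UMIs for control and 10451 for mutant cells. In cells of at least 5000 UMIs the Foxd1 log2 ratio was -1.11, against -1.12 over all RPE-like cells. Those cells held 119 of the 140 control and 45 of the 46 mutant Foxd1 UMIs, so the ratio could hardly move. The part of depth in the Foxd1 difference was not tested. Foxd1 was within 2-fold at a limit of 5% mitochondrial UMIs (-0.94), at a clustering resolution of 2 (-0.71), with 5 CPM added (-0.98) and in cells in which Y-linked genes were counted but not Xist (-0.87). In cells in which Xist was counted but not Y-linked genes, it was at -2.09. Of Twist1, Prrx1 and Foxc1, only Twist1 (11 and 2 UMIs) was past 2-fold in cells of at least 5000 UMIs. None of the 4 genes was with 5 CPM added or with Y-linked genes alone, where not all were measured. The control level of Foxc1 was below the added 5 CPM.

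The genes with the pattern most like each member were found across 59 points (32 clusters, each library on its own) among 15732 genes, as Pearson's r of log2(CPM + 1). Points share their library, so the values are a description. Twist1 and Prrx1 were most like Col3a1 (0.95 and 0.96) and were alike between themselves (0.95). Twist2 was nearest to Dpep1 (0.91) and the fibrillar collagens Col5a2 (0.90) and Col5a1 (0.89). Foxc1 was nearest to Mgp (0.93), Nid1 (0.91) and Lama4 (0.90), the last 2 being basement membrane components. Foxc2 was nearest to Aldh1a2, a retinoic acid enzyme (0.92), Snai1 (0.91) and Foxl1 (0.90).

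Tbx15 was nearest to Col6a6 (0.87), Tnxb (0.83) and Nrk (0.83), and Tbx18 to Alx1 (0.90), Tmem100 (0.87) and Plxdc1 (0.86). Thbs2 (0.95) and Twist1 (0.95) followed Col3a1 for Prrx1, and Prrx1 (0.95) and Dkk2 (0.95) followed it for Twist1. Between paralogs r was 0.88 for Foxc1 and Foxc2, 0.87 for Twist1 and Twist2 and 0.70 for Tbx15 and Tbx18. Foxd1 had r between -0.38 and -0.10 with the other 7 members. Its nearest genes were Sox9 (0.87), a factor of retinal progenitors and glia, B230118H07Rik (0.82) and Adgrv1 (0.82).

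Companion factors were read by the same rule, 10 relatives of the members and 25 other factors of neural crest and eye mesenchyme. In fibroblast-like cells 7 relatives and 23 others were measured, and 0 were past 2-fold, against the 5.08% of all genes. In pericyte-like cells, where 9.94% of all genes were past 2-fold, 5 relatives and 21 others were measured. Zic1 was lower (43 and 16 UMIs, 55.9 and 24.4 CPM, log2 ratio -1.16, -2.12 to -0.34). Alx1 (19.5 and 7.64 CPM), Msx1 (11.7 and 4.58 CPM) and Osr2 (14.3 and 4.58 CPM) were lower past 2-fold, each with an interval that included 0. In other mesenchyme-like cells (5.06% of all genes past 2-fold) 7 relatives and 21 others were measured, and Msc (28 and 4 UMIs) and Osr1 (16 and 2 UMIs) were lower and Tfap2a (8 and 16 UMIs) higher. In the Lypd1 and Cldn10 cluster (7.77%) Foxl1 (13 and 2 UMIs) and Foxl2 (12 and 1 UMIs) were lower, while Osr2 (11 and 17 UMIs) was past 2-fold in the higher direction with an interval that included 0 (-0.10 to 2.31). In the Col10a1 and Aldh1a2 cluster (6.64%) Ebf2 was higher (5 and 12 UMIs, 0.57 to 4.03). Meox2 (17 and 3 UMIs) and Zic1 (12 and 2 UMIs) were past 2-fold there in the lower direction with intervals that included 0. Osr1 (135 and 116 CPM), Osr2 (231 and 257 CPM) and Foxl2 (30.5 and 18.6 CPM) stood higher in fibroblast-like cells than in the classes named here. The part of RNA from other cells in their low levels was not tested.

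Of the companions with the most UMIs, 5 are given here, and their levels over all mesenchyme lay within 2-fold. They were Ebf1 (294 and 286 CPM), Nr2f2 (150 and 131 CPM), Zeb2 (98.3 and 99.9 CPM), Nr2f1 (91.6 and 94.2 CPM) and Tfap2b (81.4 and 109 CPM, log2 ratio 0.42, 0.31 to 0.53). Without the Dkk2 and Col1a1 cluster Tfap2b differed by 0.51 (0.41 to 0.63). Some companions stood high in particular clusters. Foxf2, a forkhead factor of pericytes, stood at 125 and 133 CPM in the Col10a1 and Aldh1a2 cluster, where Foxc1 and Tbx18 were high. Ebf1 reached 896 and 982 CPM in pericyte-like cells. Scx, the tendon factor, reached 873 and 950 CPM in the Tnmd and Scx cluster, which is labelled by Scx as one of its leading genes.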

How the data were processed

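The authors counted UMIs from 10x 3′ libraries with Cell Ranger (7.1.0 per the processing notes, 3.1.0 in the matrix headers) against mm10, and the annotation is not given in the sources used here. The deposited values are raw UMI counts per gene and barcode. Barcodes with at least 200 genes and at most 15% mitochondrial UMIs were kept. Scrublet (scanpy 1.11.5) scored each barcode. Score cutoffs were set from the expected doublet rates of 11.4% (control) and 9.78% (mutant), which removed 1646 and 1214 barcodes. Scrublet's own cutoff called 0% and 5.46%, so the numbers removed follow from the rates that were set. The stated upper limit of 2000 UMIs was not applied, because 80.2% and 92.1% of barcodes exceeded it.

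The libraries were integrated and clustered in Seurat 5.3.0 (R 4.3.3, 30 components, resolution 1) on 1976 genes, with members and companions kept out. Of 37 clusters 9 stayed unnamed. A gene was past 2-fold by its plain CPM ratio, with at least 10 UMIs over both libraries. Log2 ratios have 1 CPM added on both sides, and their exact conditional 95% intervals do not. Intervals are exact Poisson for CPM and exact Clopper-Pearson for shares, and a count of 0 allows up to 3 counts. The code was tested on simulated data.

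Named were all 8 members, companions past 2-fold, the 6 most abundant companions, the 3 nearest genes by r and leading genes of clusters. Some companion results are not reported here. Members and lists were chosen with earlier results of these data known, and the limits for naming clusters were set with the clusters in view.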

Additional observations from a re-analysis of the deposited data

Results flagged for a closer look

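Twist1 differed between the libraries in opposite directions in clusters of the same mesenchyme. Its log2 ratio of mutant over control was -0.49 in the Col10a1 and Aldh1a2 cluster, 0.25 in fibroblast-like cells and 0.14 in corneal stroma-like cells, each with a counting interval that excluded 0. The difference between these ratios was not tested, since each genotype has 1 library.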

How the results depend on the processing

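In other mesenchyme-like cells 0 members were past 2-fold under all alternatives that gave a value; the upper limit of 2000 UMIs gave none there or in pericyte-like cells. In fibroblast-like cells the count of 0 of 8 became 1 of 1 measured with that upper limit, 3 of 6 with cells thinned to 1000 UMIs (Foxc1, Twist2 and Tbx18), and 1 each in cells with UMIs of Xist alone and of Y-linked genes alone. In pericyte-like cells the count of 0 of 5 became 2 of 4 with thinned cells (Twist1 lower, Tbx18 higher) and 1 in cells with Xist alone. In neural retina-like cells the 3 lower of 7 measured members became 0 of 1 measured with the upper limit of 2000 UMIs, 5 of 8 at resolution 0.5 and 0 of 7 with 5 CPM added. The control levels of those 3 genes, and of Foxc1 in RPE-like cells, were near or below the added 5 CPM. That setting could hardly call them. In RPE-like cells, where all alternatives were chosen after seeing the data, the 4 lower of 4 measured members became 1 of 1 measured with the upper limit, 0 of 4 with 5 CPM added, 2 of 2 with thinned cells, 2 of 2 with Xist alone, 0 of 2 with Y-linked alone and 2 of 3 with at least 5000 UMIs. No RPE-like cluster was found at resolution 0.5. Foxd1 in RPE-like cells was within 2-fold at a limit of 5% mitochondrial UMIs (log2 ratio -0.94), at resolution 2 (-0.71), with 5 CPM added (-0.98) and with Y-linked alone (-0.87), and was -2.09 with Xist alone. The cause of these shifts, beyond the smaller numbers measured, was not tested. Of 184 recomputed member ratios over 21 pairs of gene and class, 170 lay inside the main interval. Of these settings, leaving out the 2 clusters of unequal share removed no cell of these classes, so those ratios could not differ. A gate on collagen UMIs took the same 2076 control and 772 mutant cells for every mesenchyme class. Those 2 settings were therefore no separate check of the classes. Leaving the Dkk2 and Col1a1 cluster out of all mesenchyme, a setting chosen after seeing the data, left the share of cells above that of photoreceptor-like cells for 7 members. Depth limits the pericyte-like values and all counts after thinning. No paired analysis was possible because each genotype has 1 library.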

Other observations

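Cells of the shallow Dkk2 and Col1a1 cluster, which made up 4.45% of the control and 0.166% of the mutant library, were not used in the comparisons by class. In its control cells Twist2 stood at 30.5 CPM (38 UMIs), Tbx15 at 10.4 CPM (13 UMIs) and Foxc2 at 8.02 CPM (10 UMIs).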
